A study of Danio rerio with 6 samples.

Results

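Cone transducin is the G protein that carries the light signal of cone photoreceptors from the opsins to the effector enzyme. 6 zebrafish genes of this protein and its direct regulators were followed here, namely *gnat2*, *gnb3b*, *gngt2a*, *gngt2b*, *rgs9a* and *pdcb*. They were found by their symbols in the annotation of the array, which gave 7 probe sets of 15502 tested and 6 genes of the 8793 named. *gnat2* had a pair of probe sets and each of the other genes had 1. The samples were retinal cells of untreated adult zebrafish that carry the transgene Tg(3.2TalphaCP:EGFP), with EGFP in cones under the *gnat2* promoter. Neural retinae, without lens and pigment epithelium, were pooled and dissociated with trypsin, and the cells were sorted by fluorescence into a GFP-positive and a GFP-minus population, with 3 biological replicates and 3 arrays each. No source used here states whether arrays of the same replicate number came from 1 sort. Although both populations are labelled as cone cells, the GFP-minus samples are taken here as retinal cells without EGFP signal. Since this promoter drives the reporter, the gate selected cells by the activity of one of the genes measured, and the difference of *gnat2* is not independent of the sort.

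Transducin consists of an α subunit, which binds GTP when an opsin has caught light, and of a β and a γ subunit, which hold the inactive α subunit at the membrane. The α subunit with GTP relieves the inhibition of the cone phosphodiesterase, cyclic GMP falls and the cation channels of the outer segment close. RGS9, which works in a complex with a long form of Gβ5 and a membrane anchor, speeds the hydrolysis of GTP and so ends the signal, and phosducin binds the βγ dimer. Vertebrate rods and cones use separate genes for the transducin subunits. In zebrafish the cone γ subunit is encoded by the paralogs *gngt2a* and *gngt2b*.

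The deposited values are on a log2 scale after GCRMA, a method that corrects each probe for the background its sequence predicts and summarises the probes of a set after normalization. The lowest value of every array was 2.17, shared by 10.3% to 11.7% of the probe sets, and levels near it cannot be told from background. Precision is limited by the number of arrays, which have no read depth. How brightly a probe set shines depends on its sequence as well as on its transcript, so that levels of different genes were not compared with each other. Of 14 measured genes of the remaining cone cascade, 11 were higher in GFP-positive cells and none was lower, and their summed signal lay at 16.68 to 17.02 on the log2 scale in GFP-positive against 12.75 to 13.99 in GFP-minus arrays. Of 11 leukocyte markers, 9 were lower in GFP-positive cells (summed signal 11.36 to 12.48 against 15.41 to 15.81), and of 7 erythrocyte markers 6 were lower (11.60 to 12.15 against 15.45 to 15.73). No marker of these 3 lists lay at the shared lowest value in all arrays of a population. Of 12 Müller glia markers, 3 were higher and 1 was lower, of 15 markers of bipolar cells and the inner retina 3 were lower, and of 5 markers of the pigment epithelium none was called by limma (unadjusted p under 0.05 for 1 that was higher and for none that was lower). Of these pigment epithelium markers, 2 (*tyr* and *pmelb*) lay at or next to the lowest value in every array and could not be called. Beside these counts, 2.99% of all probe sets were called higher and 4.69% lower. Those shares depended on the scaling, as given below, and the counts of the lists are given for the values as deposited only. Of 5 measured rod cascade genes, none was called by limma (unadjusted p under 0.05 for 4 that were higher and for none that was lower). Their median difference was 1.75, and their summed signal was 14.62 to 15.11 in GFP-positive against 12.45 to 14.26 in GFP-minus arrays. Rod signal was thus present in both populations. The part of these cells in the results below was not tested. In such bulk samples, fewer cells of a type and less RNA per cell cannot be told apart.

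All 6 genes were higher in GFP-positive cells. With limma and Benjamini-Hochberg adjustment over all probe sets, 6 of the 7 probe sets had an adjusted p under 0.05, 1 for each gene, and the second probe set of *gnat2* did not. Over all probe sets 2.99% were called higher and 4.69% lower. These shares depended on the scaling, with 39.7% higher and 7.11% lower after median centring and 1.26% higher and 21.0% lower after scaling to the hybridization controls, while all 7 probe sets of these genes were called under both. With the replicate number added to the fit as a block, only *gngt2a* and *rgs9a* were called. Over all probe sets, 1.25% were then higher and 1.65% lower. The differences ranked between 9 and 25 among the 15502 probe sets, and the median over the genes was 6.67 on the log2 scale, that is 102-fold, against 0.01 for all probe sets. After scaling to the hybridization controls each fold was 0.600 times as large, from 32.6 for *gnat2* to 80.8 for *pdcb*. In each of the 7 probe sets every GFP-positive array lay above every GFP-minus array, as did 13.9% of all probe sets. The gap between the populations was 2.45 for the second probe set of *gnat2* and up to 5.80 for *gngt2a*. An exact permutation test of the arrays gave p = 0.1 (two-sided) for each probe set, which is the smallest p that 3 arrays against 3 allow. The limma fit assumes the same variance in both populations. The SD of the GFP-minus arrays was 0.513 to 7.25 times that of the GFP-positive arrays, and larger in 5 of the 7 probe sets. Confidence intervals and calls near the threshold are limited by this.

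**Figure D1:**
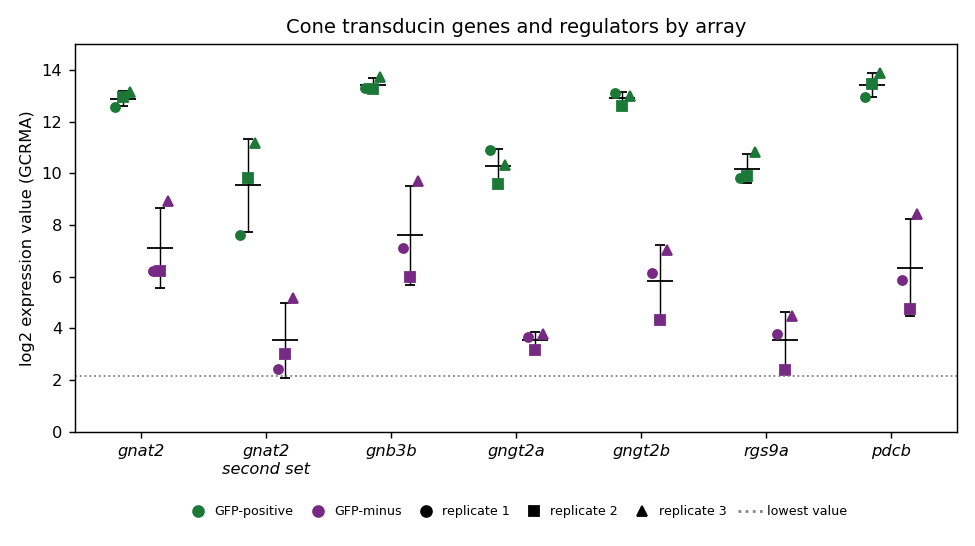
Log2 expression value of each probe set in each array, with GFP-positive arrays in green and GFP-minus arrays in purple; marker shapes give the replicate, horizontal bars the mean and error bars the SD of 3 arrays, and the dotted line the lowest value of 2.17. The populations do not overlap in any of the 7 probe sets, and GFP-minus replicate 3 is the highest GFP-minus array in each.

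*gnat2* encodes the cone α subunit. Its brighter probe set had log2 values of 12.56, 12.94 and 13.15 in GFP-positive replicates 1, 2 and 3 and of 6.24, 6.21 and 8.91 in the GFP-minus replicates. The GFP-positive arrays were thus close together, while GFP-minus replicate 3 stood well above the other two. The log2 difference was 5.76 (54.3-fold, 95% confidence interval 3.49 to 8.04, standard error 0.86, limma adjusted p = 0.0308). The further probe set of the gene had 7.63, 9.80 and 11.19 in GFP-positive against 2.42, 3.01 and 5.18 in GFP-minus cells. Its mean difference was of like size, at 6.00 (95% confidence interval 2.67 to 9.33), but with a standard error of 1.25 it was not called (limma adjusted p = 0.0689). Both probe sets were lowest in replicate 1 and highest in replicate 3 of the GFP-positive arrays, but the range was 0.59 in the brighter and 3.56 in the dimmer one. Within the arrays, the distance between both probe sets ranged from 1.96 to 4.94 in GFP-positive and from 3.21 to 3.82 in GFP-minus cells. The change of this distance between the populations was -0.24 with a standard error of 0.89 (exact permutation p = 0.7, two-sided). The pair therefore gave the same direction and differences that lay within a standard error of each other. With standard errors of this size, close agreement of the differences is not shown. The dimmer probe set also came close to the lowest value in GFP-minus replicates 1 and 2, so that its difference may be understated. The distance of the pair was widest in GFP-positive replicate 1 and narrowest in GFP-positive replicate 3.

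*gnb3b* encodes the cone β subunit. Its values were 13.30, 13.25 and 13.73 in GFP-positive against 7.10, 5.98 and 9.69 in GFP-minus cells. The GFP-positive range was 0.48 and the GFP-minus range 3.71, the latter the widest of the 7 probe sets. The log2 difference was 5.83 (standard error 1.04, 95% confidence interval 3.06 to 8.60), or 57.0-fold, with a limma adjusted p = 0.0481, close to the threshold.

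The γ subunit anchors the dimer to the membrane through its lipid group. *gngt2a* had values of 10.91, 9.60 and 10.31 in GFP-positive against 3.67, 3.16 and 3.79 in GFP-minus cells. It was the probe set with the narrowest GFP-minus range of the 7, 0.64, at values not far above the lowest value of the arrays, and its log2 difference was 6.74 (107-fold, standard error 0.40, 95% interval 5.67 to 7.80, limma adjusted p = 0.00489). *gngt2b* had 13.10, 12.59 and 12.98 in GFP-positive against 6.14, 4.32 and 7.05 in GFP-minus cells. Its log2 difference was 7.06 (133-fold, standard error 0.77, 95% interval 5.02 to 9.09, limma adjusted p = 0.0151). Both paralogs were lowest in GFP-positive replicate 2 and highest in GFP-positive replicate 1, whereas *gnat2*, *gnb3b*, *rgs9a* and *pdcb* were highest in GFP-positive replicate 3.

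*rgs9a* encodes a form of the GTPase-accelerating protein RGS9. It had 9.80, 9.89 and 10.82 in GFP-positive against 3.78, 2.40 and 4.49 in GFP-minus cells, and GFP-minus replicate 2 was thus near the lowest value. The log2 difference was 6.61 (98.0-fold, standard error 0.65, 95% interval 4.88 to 8.35, limma adjusted p = 0.0126). *pdcb* encodes a phosducin. It had 12.94, 13.46 and 13.86 in GFP-positive against 5.86, 4.75 and 8.43 in GFP-minus cells, where replicate 3 again stood apart. Its log2 difference was 7.07 (135-fold, standard error 1.05, 95% interval 4.27 to 9.87, limma adjusted p = 0.0311).

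All 7 probe sets were higher in GFP-positive cells without any one array, which follows from the gap between the populations. The number called was 2, 1 and 1 without GFP-positive replicate 1, 2 and 3, and 3, 3 and 6 without GFP-minus replicate 1, 2 and 3. These smaller fits called fewer probe sets in general, since the share called higher over all probe sets was 2.08%, 0.922% and 0.664% without GFP-positive replicate 1, 2 and 3, and 1.66%, 0.813% and 1.65% without GFP-minus replicate 1, 2 and 3. *gngt2a* kept its call in 6 of 6 such fits, *rgs9a* in 4 and *gngt2b* in 3, while *gnat2*, *gnb3b* and *pdcb* kept it in 1, the fit without GFP-minus replicate 3. Without that array the folds were 101 for *gnat2*, 118 for *gnb3b*, 202 for *gngt2b* and 277 for *pdcb*, and without GFP-minus replicate 2 they were 39.7, 32.6, 78.7 and 77.5 in the same order. The second probe set of *gnat2* was called in none, and its fold was 124 without GFP-positive replicate 1, 36.2 without GFP-positive replicate 3 and 113 without GFP-minus replicate 3. The fold of *gngt2a* stayed between 85.4 and 135.

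**Figure D2:**
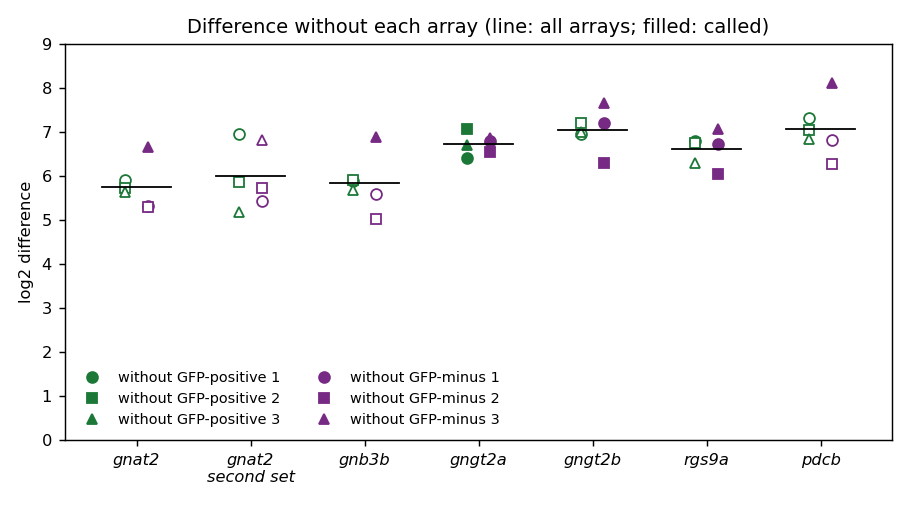
Log2 difference between GFP-positive and GFP-minus cells with each array left out in turn (green for a GFP-positive and purple for a GFP-minus array, shapes for the replicate), with black lines at the value from all arrays; filled markers have a limma adjusted p under 0.05. *gngt2a* is filled throughout, and *gnat2*, *gnb3b* and *pdcb* are filled only without GFP-minus replicate 3.

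The level that remained in GFP-minus cells differed between these arrays. The shares given here are for the values as deposited and would change with the scaling. The hybridization controls averaged 9.56, 9.41 and 9.03 in GFP-minus replicates 1, 2 and 3, and 9.89 to 10.36 in GFP-positive arrays. As a share of the geometric mean of the GFP-positive arrays, GFP-minus replicate 1 held between 0.530% (*pdcb*) and 1.25% (*gnb3b*) and GFP-minus replicate 2 between 0.245% (*pdcb*) and 1.08% (second probe set of *gnat2*). GFP-minus replicate 3 was the highest of the 3 for all 7 probe sets. It held 6.37% and 4.88% for the probe sets of *gnat2*, 7.52% for *gnb3b*, 1.12% for *gngt2a*, 1.74% for *gngt2b*, 1.94% for *rgs9a* and 3.14% for *pdcb*. Over the geometric mean of the other GFP-minus arrays, *gnb3b* was 8.89-fold, *pdcb* 8.71-fold and *gnat2* 6.42-fold higher there, against 3.51-fold for *gngt2b*, 2.63-fold for *rgs9a* and 1.30-fold for *gngt2a*. The summed signal of 10 of the 13 gene lists was highest in this array among the GFP-minus arrays. These lists are not independent, since *gnb1a*, *gnb1b*, *gngt1*, *pdca* and *rgs9b* each stand in more than 1 of them. A sum also follows mainly the brightest genes of its list. For the remaining cone cascade it was 13.99 there on the log2 scale, against 12.75 and 12.89 in the other two. It exceeded the next GFP-minus array by 1.22 on the log2 scale for the rod cascade and by 0.84 for the genes of lipid modification, folding and transport of G protein subunits, and by 0.13 for the Müller glia, 0.09 for the erythrocyte, 0.04 for the inner retina and 0.0032 for the pigment epithelium markers. The leukocyte markers, other RGS genes and other α subunit genes were not highest there. The share of all probe sets that were highest in GFP-minus replicate 3 was not counted. These counts therefore do not show that the pattern is particular to the 6 genes or to the lists. The part of other cells, or of the background step for the dim probe sets, was not tested.

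**Figure D3:**
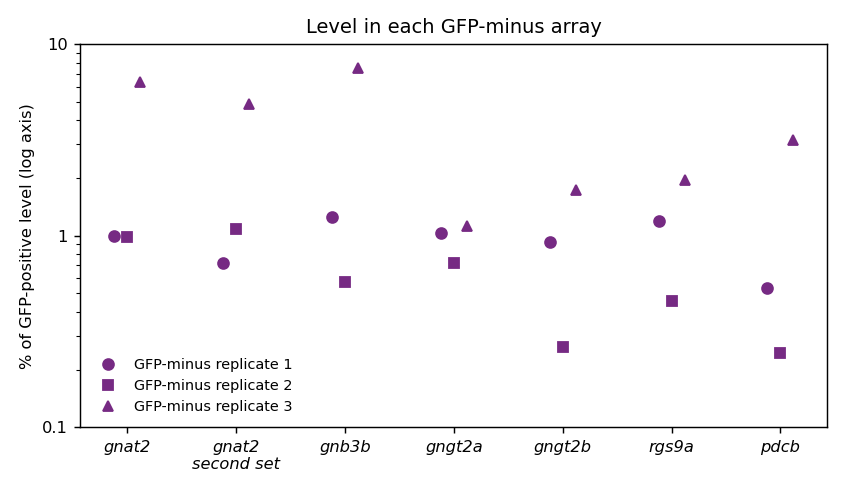
Linear level of each probe set in each GFP-minus array as a percentage of the geometric mean of the GFP-positive arrays, on a log axis; shapes give the replicate. Replicate 3 lies highest in each probe set, at 7.52% for *gnb3b* but at 1.12% for *gngt2a*.

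Whether the transcripts of the subunits stood in the same proportion in both populations was asked through the ratio of a pair of genes within each array. The ratio itself has no meaning as a number of transcripts, because the probe sets differ in brightness, but its change between populations does not depend on this as long as both probe sets lie well above background. It also assumes that both follow their transcripts in the same proportion up to the brightest values, which was not tested. *gngt2a* (3.16 to 3.79) and *rgs9a* (2.40 to 4.49) came close to the lowest value in GFP-minus cells, so that their differences may be understated there, and the changes of the 9 pairs that hold either of them are limited by this. In GFP-minus replicate 2, *gngt2b* (4.32) and *pdcb* (4.75) lay below the median of that array, 4.86. The pairs that hold either of these are limited in that array as well. The ratio of *gnb3b* to *gnat2* changed by 0.07 on the log2 scale (standard error 0.37, exact permutation p = 1, two-sided). That of the γ paralogs, *gngt2b* over *gngt2a*, changed by 0.32 (standard error 0.65, p = 0.8, exact permutation test). The populations overlapped in both ratios, and for the γ paralogs the low level of *gngt2a* in GFP-minus cells limits what this ratio can show. The change of *pdcb* relative to *gnb3b* was the largest of the 15 pairs against its standard error. The log2 values of *pdcb* minus those of *gnb3b* were -1.24, -1.23 and -1.27 in GFP-minus replicates 1, 2 and 3 although either gene alone ranged over more than 3 log2 units there. In GFP-positive cells they were -0.36, 0.21 and 0.14. The ratio was thus 2.36-fold higher in GFP-positive cells (log2 change 1.24, standard error 0.18). *pdcb* over *gnat2* (change 1.31, standard error 0.36) and *gngt2b* over *gnb3b* (1.22, standard error 0.52) did not overlap between the populations either. Of the 15 pairs, these 3 reached p = 0.1, the smallest the exact permutation test allows, and their Benjamini-Hochberg adjusted p over the 15 pairs was 0.5, so that no pair passed the threshold. The signs of several smaller changes turned without single arrays, among them that of *gngt2b* over *gngt2a*, which was -0.25 without GFP-minus replicate 2 and 0.80 without GFP-minus replicate 3.

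**Figure D4:**
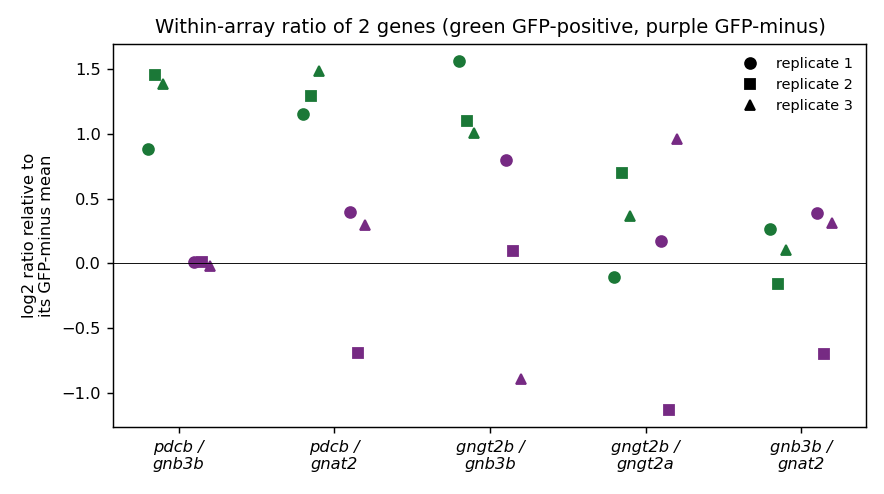
Log2 ratio of a pair of genes within each array, set to 0 at its GFP-minus mean, for 5 pairs; green marks GFP-positive and purple GFP-minus arrays, and shapes the replicate. The ratio of *pdcb* to *gnb3b* is nearly the same in the GFP-minus arrays and higher in each GFP-positive array (mean change 1.24), while *gnb3b* to *gnat2* overlaps (mean change 0.07).

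The rod counterparts of these genes, and the paralogs of the regulators, had log2 differences between 0.89 and 1.98. Of them, 1 was called higher, beside 2.99% of all probe sets. The rod α subunit gene *gnat1* had a log2 difference of 0.91 (95% confidence interval 0.12 to 1.70, limma adjusted p = 0.182) and the rod γ subunit gene *gngt1* one of 0.98 (0.26 to 1.69, limma adjusted p = 0.128). The values of *gnat1* were 14.23, 14.23 and 14.43 in GFP-positive against 12.97, 13.20 and 13.99 in GFP-minus cells. Those of *gngt1* were 14.37, 14.40 and 14.85 against 13.22, 13.43 and 14.03. The β subunit genes *gnb1a* and *gnb1b* had 1.68 (0.66 to 2.71, limma adjusted p = 0.0867) and 1.23 (0.69 to 1.78, limma adjusted p = 0.0400), and of these *gnb1b* was called. The phosducin paralog *pdca* had 1.98 (0.78 to 3.19, limma adjusted p = 0.0859). *rgs9b*, the paralog of *rgs9a*, was near the lowest value in most arrays, with 2.46, 4.00 and 3.46 in GFP-positive against 2.46, 2.33 and 2.46 in GFP-minus cells. Its log2 difference of 0.89 (-0.24 to 2.02, limma adjusted p = 0.332) is the lower end of the range above. The further probe sets of *gnat1* (1.84), *gnb1a* (1.53) and *pdca* (1.55 and 1.72) had the same direction and were not called. Scaling to the hybridization controls shifts each of these differences by -0.74 and median centring by 0.23, so that their size depends on the scaling.

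The gap between a cone gene and its counterpart was measured within each array in 6 pairs. None was formed for *rgs9a*, because *rgs9b* was near the lowest value in all GFP-minus arrays and in GFP-positive replicate 1. The difference of *gnat2* exceeded that of *gnat1* by 4.85 on the log2 scale (standard error 0.61), and that of *gnb3b* exceeded *gnb1a* by 4.15 (0.70) and *gnb1b* by 4.60 (0.94). Against *gngt1* the excess was 5.76 (0.47) for *gngt2a* and 6.08 (0.72) for *gngt2b*. It was 5.09 (0.80) for *pdcb* over *pdca*. As *gngt2a* came close to the lowest value in GFP-minus cells, its gap may be understated. The gaps of *gngt2b* (4.32) and *pdcb* (4.75) are limited in GFP-minus replicate 2, where both lay below the array median of 4.86. Like the ratios above, the gaps assume that both probe sets follow their transcripts in the same proportion up to the brightest values, which was not tested. Each gap rests on the brightest probe set of a gene. The other probe set of *gnat1* had a larger difference than the one used (1.84 against 0.91), and those of *gnb1a* and *pdca* had smaller ones. No pair overlapped between the populations, and each had an exact permutation p = 0.1, also after adjustment over the 6 pairs, which is the smallest possible. The pairs were formed after the values were seen, and *gnb3b* and *gngt1* recur among them. These p-values therefore add no independent support.

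The partners of RGS9 had positive differences that were not called. *gnb5b*, a gene of the β5 subunit, had 11.42, 12.17 and 12.41 in GFP-positive against 9.80, 9.95 and 10.94 in GFP-minus cells, a log2 difference of 1.77 (95% confidence interval 0.61 to 2.94, limma adjusted p = 0.101). *rgs9bp*, the gene of the membrane anchor, had 8.37, 9.32 and 9.47 against 6.95, 7.35 and 8.38, a log2 difference of 1.49 (0.12 to 2.86, limma adjusted p = 0.205). Whether their difference was smaller than that of *rgs9a* was not tested.

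**Figure D5:**
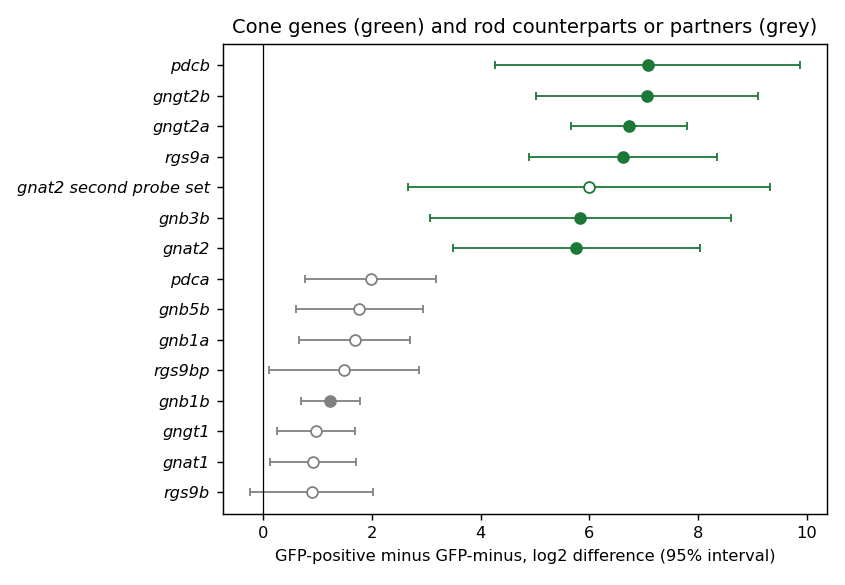
Log2 difference between GFP-positive and GFP-minus cells with its 95% confidence interval from limma, for the cone genes (green) and their rod counterparts and RGS9 partners (grey, brightest probe set of each gene); filled markers have an adjusted p under 0.05. The cone genes lie between 5.76 and 7.07 and the others between 0.89 and 1.98, where 0.89 is that of *rgs9b*, which was near the lowest value in most arrays.

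Of 19 measured G protein α, β and γ subunit and RGS genes outside those described above, 3 were lower in GFP-positive cells, beside 4.69% of all probe sets, and none was higher by limma (unadjusted p under 0.05 for 7 that were lower and 1 that was higher). The one called among 7 α subunit genes was that of an inhibitory subunit, *gnai1* (3.41-fold lower, limma adjusted p = 0.0240), and their median difference was -0.91. The inhibitory subunit genes *gnai2a* and *gnai2b* had log2 differences of -1.35 and -0.41 and were not called. Of 9 β and γ subunit genes, 3 were *gnb1a*, *gnb1b* and *gngt1*, described above as rod counterparts. Among the other 6, the γ subunit gene *gng5* was lower (2.78-fold, limma adjusted p = 0.0176), and the median was -0.48. Of 6 other RGS genes, *rgs2* was lower (12.2-fold, limma adjusted p = 0.0293), and the median was -0.19. Of 10 genes for lipid modification, folding and transport of G protein subunits, *ric8a*, a chaperone of α subunits, was higher (3.59-fold, limma adjusted p = 0.0431), none was lower by limma (nor at an unadjusted p under 0.05), and the median was 1.03. *unc119.2*, of the family that binds the lipid tail of the transducin α subunit, had a log2 difference of 2.16 (standard error 0.63, limma adjusted p = 0.144), and *icmt*, of the enzyme that methylates prenylated proteins such as the γ subunits, one of 1.83 (standard error 0.40, limma adjusted p = 0.0780). Of 7 genes of the RGS9 complex and the phosducin family, 4 of them described above, none was called by limma (unadjusted p under 0.05 for 3 that were higher and for none that was lower), with a median of 0.89. Those 3 were *pdca*, *gnb5b* and *rgs9bp*, given above, and the median was the difference of *rgs9b*, which was near the lowest value. The 3 genes of this list not described above had a median of -0.04, and none had an unadjusted limma p under 0.05.

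The 5 genes whose course over the 6 arrays was most like the mean of the 6 cone genes were *pde6c*, *zgc:195245*, *opn1sw2*, *guca1c* and *clul1*. Likeness was the root mean square distance of values centred on each probe set's own mean, which was 0.25, 0.30, 0.31, 0.49 and 0.54 on the log2 scale in this order. The brighter probe sets of the 6 genes themselves lay between 0.32 (*rgs9a*) and 0.70 (*gngt2a*) from their mean, and the second probe set of *gnat2* at 1.09. *pde6c* encodes the catalytic subunit of the cone phosphodiesterase, the enzyme on which transducin acts, *opn1sw2* the blue cone opsin and *guca1c* a guanylate cyclase activator. *pde6c* had 13.59, 14.05 and 14.16 in GFP-positive against 6.81, 6.04 and 8.96 in GFP-minus cells, with GFP-minus replicate 3 again the highest of its population. As the measure runs over arrays of both populations, it reflects mainly the size of the difference.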

How the data were processed

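Expression was measured in 3 GFP-positive and 3 GFP-minus samples on Affymetrix GeneChip Zebrafish arrays after two-cycle biotin labelling. The authors deposited log2 values per probe set, and the submitters' processing notes name GCRMA; for its version and parameters, nothing is given in the sources used here. Low values depend on its background step. Groups and replicate numbers came from the sample titles. Of 15617 probe sets, 115 controls were left out. Gene names came from the platform annotation, updated through gene identifiers (1 symbol changed): 10795 probe sets had 1 symbol, 135 several and 4572 none. Coordinates are left out, because the values come with no genome build.

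The comparison used lmFit and eBayes of limma 3.58.1 (prior of 0.519 degrees of freedom) under R 4.3.3. Tests were two-sided, p-values were adjusted by Benjamini-Hochberg over 15502 probe sets and called under 0.05. The procedure was also run on simulated data with the same spread in both populations and with smaller changes than those of the 6 genes. That run does not cover unequal spread between the populations or values near the lowest value. Within-array differences of pairs of genes were tested with exact permutation tests. Where a gene has several probe sets, the one with the highest mean was used unless stated. The text names all probe sets of the 6 genes, rod counterparts and RGS9 partners, called genes of G protein lists and the 5 most alike genes; *unc119.2* and *icmt*, genes beside the 6 genes in the genome, and the tests against rod counterparts were added after values were seen. The genes and 13 lists were chosen with earlier results of these data known. Replicates are biological per the labels. Alternatives were a replicate block, a dim filter (above 5 in at least 3 arrays), quantile normalization, median centring, scaling to 18 hybridization control probe sets, a trended robust prior, an adjusted p under 0.01 and leaving out each array. Figures were drawn with matplotlib 3.10.9.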

Additional observations from a re-analysis of the deposited data

How the results depend on the processing

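All 7 probe sets of the 6 genes stayed higher in GFP-positive cells under every alternative run, and none passed as lower. This adds no support. The block, the dim filter, the trended robust prior and the stricter threshold leave the differences as they are. Since the populations do not overlap in these probe sets, leaving out 1 array cannot turn the direction either. With a replicate block, 2 of them were called instead of 6 (194 higher and 256 lower among all probe sets, against 463 and 727): *gngt2a* (limma adjusted p = 0.0343) and *rgs9a* (0.0465) kept the call, and *gnat2* (log2 difference 5.76, 0.0813), *gnb3b* (5.83, 0.0980), *gngt2b* (7.06, 0.0622) and *pdcb* (7.07, 0.0813) lost it. Deviations from the population means of arrays with the same number correlated at 0.555, 0.0589 and 0.266 across probe sets, and 1 of 3 GFP-positive arrays deviated most like the GFP-minus array of its own number. The block lowered the standard error of each of the 7 probe sets, from 0.86 to 0.68 for *gnat2* and from 1.25 to 0.41 for its second probe set. The mean deviation of the 6 genes was -0.07, -0.22 and 0.30 in GFP-positive replicates 1, 2 and 3. In the GFP-minus replicates it was -0.20, -1.19 and 1.39. These values do not settle whether the numbers are pairs, and the main fit did not take them as pairs. The second probe set of *gnat2* was called with the dim filter (log2 difference 6.00, 7667 probe sets tested), median centring (6.23) and the hybridization-control scaling (5.26). It passes the dim filter only through its GFP-positive arrays, since GFP-minus replicates 1 and 2 lay at 2.42 and 3.01. The same holds for *gngt2a* and *rgs9a*, which had no GFP-minus array above 5. Calls of these probe sets under that filter therefore add no support. The trended robust prior left *gnb3b* (5.83) just outside the threshold, at 0.0506, and an adjusted p under 0.01 left 1 of the 7, *gngt2a*, among 50 higher and 201 lower. Over all probe sets, 814 were higher with the dim filter, 6151 higher and 1102 lower with median centring, which shifts a typical difference by 0.23, and 195 higher and 3251 lower with the hybridization-control scaling, which shifts it by -0.74 and made each fold 0.600 times as large. Median centring turns the small negative median of the other RGS genes positive. With the hybridization-control scaling, the median of the genes for lipid modification, folding and transport (1.03) is shifted by -0.74. The median of the RGS9 complex and phosducin family (0.89) and the differences of the rod counterparts and RGS9 partners are shifted likewise. The higher probe sets were 38.9% of the calls as deposited, 84.8% with median centring and 5.66% with the hybridization-control scaling.
Without single arrays, 103 to 323 probe sets were higher and 214 to 740 lower, and 1 to 6 of the 7 were called. The log2 differences then ranged from 5.31 to 6.66 for *gnat2*, 5.03 to 6.88 for *gnb3b*, 6.30 to 7.66 for *gngt2b*, 6.04 to 7.08 for *rgs9a* and 6.28 to 8.11 for *pdcb*. Changes of ratios turned sign for *gngt2a* over *gnb3b* (-0.0230 to 1.51), *pdcb* over *gngt2a* (-0.27 to 1.25), *gngt2b* over *gngt2a* (-0.25 to 0.80), *gngt2a* over *rgs9a* (-0.38 to 0.50), *gnb3b* over *gnat2* (-0.28 to 0.27, and -0.0484 with the mean of both *gnat2* probe sets) and *pdcb* over *gngt2b* (-0.38 to 0.45). Apart from the smaller numbers of probe sets or arrays by construction, the cause of these changes was not tested. Dim levels near 2.17 limit what can be said of *gngt2a*, *rgs9a* and the second probe set of *gnat2* in GFP-minus cells.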

Other observations

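The genes that lie next to the 6 cone genes in the RefSeq annotation of the assembly GRCz12tu were measured in part. *tpi1a*, the neighbour of *gnb3b* and a gene of the glycolytic enzyme triosephosphate isomerase, was higher in GFP-positive cells with a log2 difference of 2.06 (standard error 0.27, limma adjusted p = 0.0224). The other measured neighbours were not called: *si:dkey-89b17.4* beside *gnb3b* had -0.0020, *ampd2b* beside *gnat2* had -0.10, *col1a1a* beside *gngt2a* had -2.00 (limma adjusted p = 0.0572), *tmem101* beside *gngt2b* had 0.43 and *tprb* beside *pdcb* had 0.07. Neither neighbour of *rgs9a* was measured under its symbol.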
